A study of Mus musculus with 6 samples.

Results

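A set of 10 genes of cytosolic nucleic acid sensing was examined in mouse bone marrow-derived macrophages: the RNA receptors Ddx58, Ifih1 and Dhx58, their adaptor Mavs, the DNA receptor Mb21d1, its adaptor Tmem173, the kinases Tbk1 and Ikbke, the transcription factor Irf3 and the nuclease Trex1. They were chosen by symbol, and all 10 were found among the 19386 genes of the authors' deposited table. The cells came from wild-type C57BL/6 mice exposed to cigarette smoke or to room air, with 3 libraries a group. Marrow depleted of erythrocytes was cultured with L929 supernatant, the source of the growth factor that drives macrophage differentiation, and harvested on day 11. The series' design gives the exposure as one of the mice, before their marrow was cultured. The labels give no dose, duration of exposure, age or sex, and do not say outright that each library is a separate mouse, so the splicing p-values measure only the spread between these libraries.

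Cells detect viral or misplaced RNA through RIG-I (encoded by Ddx58) and MDA5 (Ifih1), helicases that bind double-stranded RNA in the cytosol and engage MAVS on mitochondria. LGP2 (Dhx58) resembles both but lacks the signalling domains and tunes their activity. DNA in the cytosol is bound by cGAS (Mb21d1), which makes the cyclic dinucleotide that activates STING (Tmem173) on the endoplasmic reticulum. Both branches meet at the kinases TBK1 and IKKε (Ikbke), which phosphorylate IRF3, and IRF3 then switches on type I interferon and other early genes. TREX1 degrades cytosolic DNA and so holds the DNA branch in check.

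Splicing of these genes was described from junction reads, and the sequences of 3 alternative sites that the splicing results return to are shown here, read from GENCODE M21 transcripts on GRCm38, each in the 5′ to 3′ direction of the gene. The first pair shows the event with the lowest difference among the retained introns, at the 3′ end of Irf3 exon 6 (plus strand, chr7:45001003-45001692 for the spliced form and chr7:45001003-45001052 for the retained one). In the spliced form the capitals are the last 2 bases of exon 6 and the first 2 of exon 7, and in the retained form they are the GT that opens intron 6.
Irf3 exons 6 and 7 joined: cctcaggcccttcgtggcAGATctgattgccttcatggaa
Irf3 exon 6 read into intron 6: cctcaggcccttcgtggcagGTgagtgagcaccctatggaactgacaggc
The second pair shows the skipped exon of Ikbke, exon 17 of 22 (chr1:131260006-131260045, minus strand), whose 40 bases are in capitals.
Ikbke exon included: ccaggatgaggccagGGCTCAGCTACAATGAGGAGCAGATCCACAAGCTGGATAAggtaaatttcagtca
Ikbke exon skipped: ccaggatgaggccagggtaaatttcagtca
The third pair shows the 4 bases by which the acceptor of Tbk1 exon 18 of 21 can move (chr10:121552293-121552296, minus strand), in capitals.
Tbk1 acceptor, longer form: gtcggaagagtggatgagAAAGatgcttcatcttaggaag
Tbk1 acceptor, shorter form: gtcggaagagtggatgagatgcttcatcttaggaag

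Expression was given as group means of size-factor-normalized counts, so no value of a single library and no spread of levels within a group was used here. Library depth is unknown. The fold change, its standard error and its p-value come from the authors' fit over 24 libraries, 18 of them outside this series, so the spread of those 18 entered them. Of 12082 genes tested in the authors' deposited table, 929 (7.69%) passed an adjusted p of 0.05, 502 with more (4.15%) and 427 with less (3.53%) RNA after smoke. With the trend in GC content and length described below removed, 153 genes (1.27%) passed, and the share of higher genes among the calls moved from 54.0% to 65.4%. All 10 macrophage markers were listed in the authors' deposited table, with summed means of 54713 and 57065 normalized counts in room air and smoke, and 1 of them, the lineage factor gene Spi1, was called higher after smoke (1146 and 1526, adjusted p 0.00813, and 0.856 with that trend removed). Of the neutrophil markers 2 of 8 were listed in the authors' deposited table, of the B cell markers 2 of 4, of the conventional dendritic cell markers 2 of 4, of the erythroid markers 1 of 3 and of the T and NK cell markers 0 of 5. The listed ones summed to at most 1.02 normalized counts per list and group, and stromal markers to 21.1 in room air and 3.67 after smoke. Of 5 plasmacytoid dendritic cell markers 3 were listed there, and their sums of 1653 and 1522 came almost wholly from 2 of them, Bst2 and Tcf4, which macrophages also express. In cultures measured in bulk, fewer cells of a type and less RNA per cell cannot be told apart.

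None of the 10 genes passed the threshold. The authors' deposited table gave 0 of 10 an adjusted p under 0.05, against 7.69% of all tested genes, and 2 of 10, Tbk1 and Trex1, an unadjusted p under 0.05, against 22.8% of all tested genes. Log2 fold changes in that table ran from -0.35 for Tbk1 to 0.39 for Tmem173, with 6 above 0, against 49.7% of all tested genes, and 4 below. The median of the 10 was 0.11, beside -0.0029 for all genes tested in the authors' deposited table. The summed level of the 10 genes was 4647 normalized counts in room air and 4635 after smoke by the authors' deposited table. Its mean over 24 libraries was above both group means for 7 of the 10 genes, against 48.3% of all tested genes, and at least 2 times the higher one for 5, against 12.8%.

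Among the RNA receptors, Ddx58 had the highest mean of the 10 genes and Dhx58 the lowest of the 3. For Ddx58 (ENSMUSG00000040296.15, chromosome 4, 40203773 to 40239828, minus strand) the authors' deposited table gives group means of 1188 in room air and 1073 after smoke, and 94.1% of tested genes had a lower mean. The log2 fold change there, -0.15 (SE 0.16, adjusted p 0.630), spans a fold of 0.731 to 1.12 at 95%. Ifih1 (ENSMUSG00000026896.14, chromosome 2, 62595798 to 62646255, minus strand) was at 658 and 588 by the authors' deposited table (log2 fold change -0.16, SE 0.25, adjusted p 0.760). Dhx58 (ENSMUSG00000017830.15, chromosome 11, 100694884 to 100704271, minus strand) lay on the other side of 0, at 429 and 488 by the authors' deposited table (log2 fold change 0.18, SE 0.16, adjusted p 0.557). Each of the 3 intervals held 0. The adaptor Mavs (ENSMUSG00000037523.13, chromosome 2, 131234063 to 131248025, plus strand) had the smallest log2 fold change of the 10 genes, 0.058 (SE 0.15, adjusted p 0.873), with means of 268 and 279 by the authors' deposited table. The interval allows a fold of 0.850 to 1.28.

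Of the DNA branch, the receptor had the lowest means of the 10 genes and the adaptor the widest interval on the log2 scale. Mb21d1, named Cgas in current annotation (ENSMUSG00000032344.17, chromosome 9, 78430526 to 78443237, minus strand), was at 145 in room air and 129 after smoke by the authors' deposited table, where 48.5% of tested genes had a lower mean (log2 fold change -0.17, SE 0.22, adjusted p 0.714). Tmem173 (ENSMUSG00000024349.9, chromosome 18, 35733679 to 35740554, minus strand) had the highest log2 fold change of the 10, 0.39 (SE 0.27, adjusted p 0.397), from means of 344 and 453 by the authors' deposited table. Its standard error there was also the largest, and the fold interval reached from 0.915 to 1.89.

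The estimates of the 2 kinases lay on opposite sides of 0. For Tbk1 (ENSMUSG00000020115.3, chromosome 10, 121546455 to 121586787, minus strand) the authors' deposited table gives means of 661 in room air and 515 after smoke, a fold of 0.783 with a 95% interval of 0.651 to 0.941. Its log2 fold change, -0.35 (SE 0.14), had the lowest p of the 10 genes there, 0.00908 unadjusted and 0.0822 adjusted, which is above the threshold. Ikbke (ENSMUSG00000042349.13, chromosome 1, 131254343 to 131279606, minus strand), the inducible partner kinase, was at 524 and 579.8 by the authors' deposited table (log2 fold change 0.16, SE 0.14, adjusted p 0.568). Whether the response of the 2 kinases differs was not tested, since no values per library were used for expression.

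Irf3 (ENSMUSG00000003184.15, chromosome 7, 44997648 to 45002848, plus strand) was at 181 and 213 by the authors' deposited table (log2 fold change 0.22, SE 0.16, adjusted p 0.436). Trex1 (ENSMUSG00000049734.9, chromosome 9, 109057933 to 109059734, minus strand) was at 248 and 317 by the authors' deposited table, a fold of 1.28 with a 95% interval of 1.01 to 1.63 (unadjusted p 0.0409, adjusted p 0.195). The value of Trex1 is uncertain, because 100% of its exonic bases also lie in exons of Atrip on the same strand. Atrip, which encodes the partner of the ATR kinase, had 0.32 (SE 0.16, adjusted p 0.201) as its log2 fold change by the authors' deposited table, beside 0.36 (SE 0.18) for Trex1. Dhx58, Mb21d1, Ikbke and Irf3 overlap exons of genes on the opposite strand over at most 4.87% of their exonic bases. The library kit was directional, but whether strand was used in counting is not given in the sources used here.

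Levels of different genes are comparable only per length, so the group means were divided by the length of the longest protein-coding transcript. Per kilobase, the order in room air in the authors' deposited table was Ddx58 at 307 normalized counts, Trex1 at 229, Tbk1 at 219, Dhx58 at 178, Ikbke at 161, Tmem173 at 149.8, Ifih1 at 120.3, Irf3 at 89.3, Mavs at 87.6 and Mb21d1 at 35.7. The cGAS gene thus had the lowest level per length of the 10 in both groups, with 31.9 per kilobase after smoke. After smoke, Trex1 at 293 stood above Ddx58 at 277, and Tmem173 at 197 above Ikbke at 178 and Tbk1 at 170.4 in the authors' deposited table. The place of Trex1 is uncertain in both groups, because 100% of its exonic bases also lie in exons of Atrip. Without values per library, no 2 neighbours in this order can be said to differ beyond their spread.

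**Figure D1:**
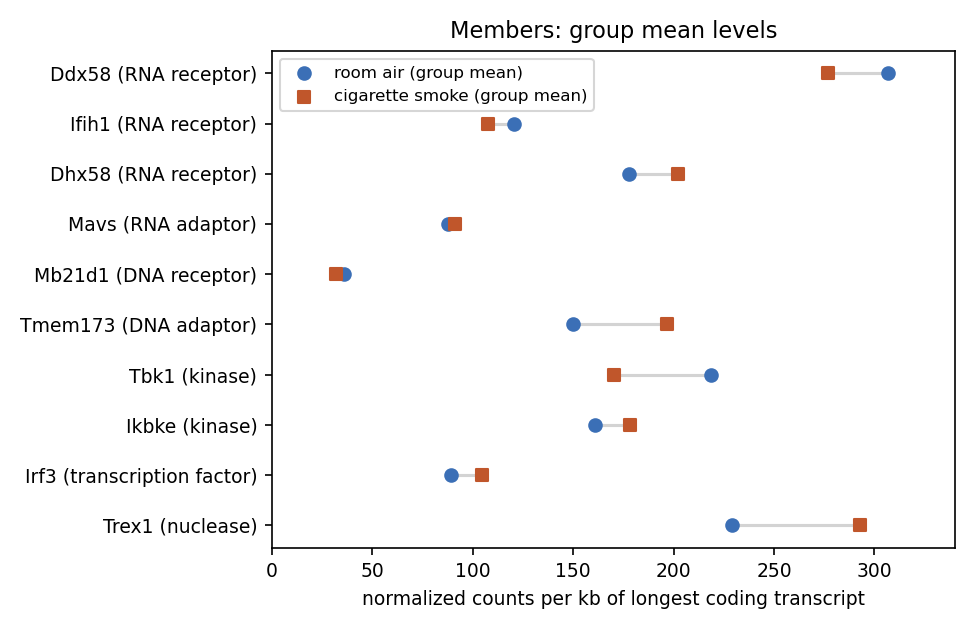
Group mean level of each gene in room air (circles) and after cigarette smoke (squares), in normalized counts per kilobase of the longest coding transcript; each point is 1 group mean with no error. Mb21d1 is lowest in both groups, and Tbk1 and Trex1 have the 2 lowest unadjusted p-values, in opposite directions. The level of Trex1 is uncertain, because its exons are shared with Atrip.

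In sign, though not always in size, the differences of most of the genes went with the base composition and length of their transcripts, as across all genes. Across 12071 genes, which are not independent, Spearman's rho of the fold changes from the authors' deposited table was 0.483 with GC content and -0.448 with length. The short GC-rich transcripts of Trex1 (1084 nucleotides, 57.8% GC) and Irf3 (2031 nucleotides, 56.7% GC) lay above 0, and the longer AT-rich ones of Ifih1 (5470 nucleotides, 42.8% GC), Mb21d1 (4049 nucleotides, 45.9% GC), Ddx58 (3874 nucleotides, 46.6% GC) and Tbk1 (3024 nucleotides, 45.4% GC) below it. In 9 of 10 genes the deposited value had the sign fitted for a gene of its GC content and length, the exception being Ikbke, against 73.4% of all genes with both properties. The longest Ikbke transcript, of 5856 nucleotides, is a non-coding one that keeps introns, and with its coding transcript of 3251 nucleotides the log2 value left after subtraction was 0.050. With the trend subtracted, 5 of the 10 changed sign, against 21.5% of all genes, and 8 lay within 1 SE of 0, against 61.0%, in values derived from the authors' deposited table. The log2 fold change became -0.020 for Trex1 and -0.047 for Irf3, 0.080 for Ifih1 and -0.072 for Mavs, and -0.0044 for Dhx58. Tbk1 stayed at -0.30, with an adjusted p of 0.335, and Tmem173 at 0.26, with an adjusted p of 0.815. Whether this trend arose in the cells or in the libraries was not tested.

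**Figure D2:**
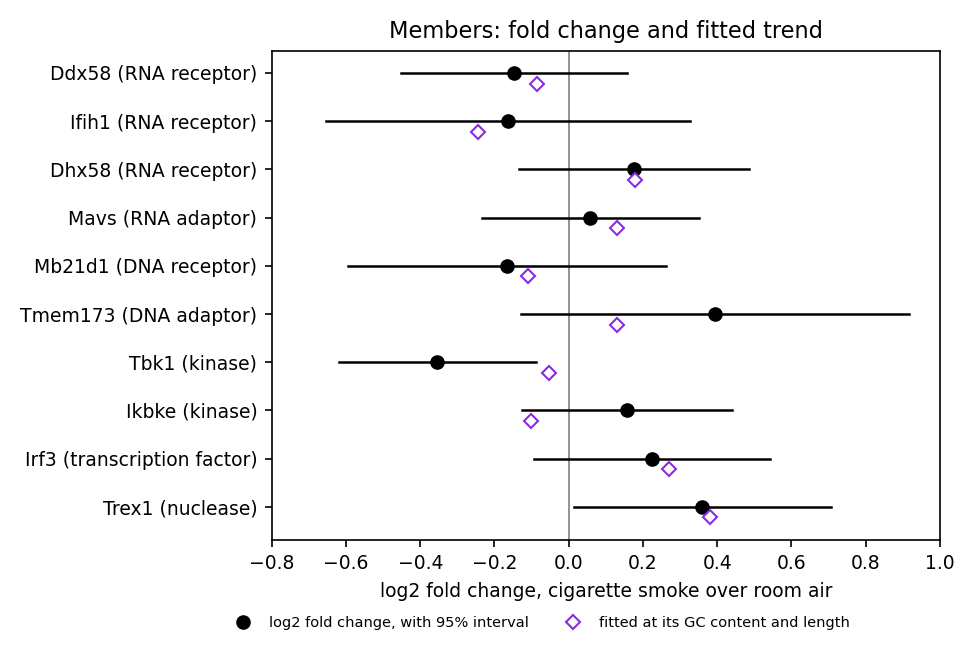
Log2 fold change of each gene, cigarette smoke over room air, as deposited (filled circles, lines for 95% intervals), and the value fitted at its GC content and length (open diamonds). Only the intervals of Tbk1 and Trex1 leave out 0, and the diamond of Trex1 lies next to its circle while that of Tbk1 lies nearer to 0.

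The wider pathway was described by 7 lists of genes grouped by role, 78 in all, of which 75 were listed and 74 tested in the authors' deposited table. Among the 74, 7 had an adjusted p under 0.05 (9.46%), beside 7.69% of all tested genes: 2 were higher and 5 lower after smoke. Their median log2 fold change was -0.032 by the authors' deposited table. With the p-values adjusted over all 19373 genes that had one, 4 of 75 pathway genes (5.33%) passed, beside 3.55% of those genes, all 4 of them lower and none of the higher calls among them. With the trend in GC content and length subtracted, 1 of 74 pathway genes (1.35%) passed, with a higher level, beside 1.27% of all genes.

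Of 15 other sensors, 2 passed with lower levels, against 3.53% of all tested genes, and 0 with higher ones, against 4.15%. In that list 12 log2 fold changes lay below 0 and 3 above, where 49.7% of all tested genes lay above, with a median of -0.21. Neither call passed with the trend subtracted, at adjusted p-values of 0.308 for Eif2ak2 and 0.388 for Aim2. By the authors' deposited table Eif2ak2, which encodes the RNA-activated kinase PKR, fell from 705 to 503 normalized counts (log2 fold change -0.48, SE 0.14, adjusted p 0.0133). Aim2, the DNA sensor of an inflammasome, fell from 392 to 327 by the authors' deposited table (log2 fold change -0.27, SE 0.086, adjusted p 0.0282). Among 16 adaptors and kinase partners, Trim56, a ubiquitin ligase that acts on cGAS and STING, fell from 449.8 to 335 by the authors' deposited table (log2 fold change -0.40, SE 0.14, adjusted p 0.0499), just inside the threshold. Tradd, an adaptor that also joins the MAVS complex, rose from 51.8 to 75.1 by the authors' deposited table (log2 fold change 0.52, SE 0.18, adjusted p 0.0463). Tank, a scaffold of TBK1, was at 577 and 441 by the authors' deposited table (log2 fold change -0.39, adjusted p 0.126). It was named after its value was seen, as a partner of Tbk1.

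Of 7 transcription factors, Irf9, the DNA-binding subunit of the interferon-activated complex, fell from 554 to 449 by the authors' deposited table (log2 fold change -0.30, SE 0.091, adjusted p 0.0200). Of 9 nucleases and other brakes, Atm, a DNA damage kinase, fell from 218 to 149.96 normalized counts by the authors' deposited table (log2 fold change -0.55, SE 0.17, adjusted p 0.0268). Of 4 transporters of cyclic dinucleotides or related peptides, Slc15a3, a lysosomal carrier, rose from 1044 to 1633 by the authors' deposited table (log2 fold change 0.65, SE 0.21, adjusted p 0.0343).

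In the other 2 lists no gene passed, against 7.69% of all tested genes. Among 12 tested cofactors of RNA sensing, those with the highest means were the helicase gene Ddx3x, at 2351 and 2022 normalized counts (adjusted p 0.513), and Pcbp2, at 1768 and 1818 (adjusted p 0.821), both in the authors' deposited table. Among 11 tested target and receptor genes of the interferon response, Ifit2 and Ifit3 had the highest means averaged over the groups, 1389 and 1361 for Ifit2 (adjusted p 0.980) and 1004 and 887 for Ifit3 (adjusted p 0.799) in the authors' deposited table. The direct IRF3 target Ifnb1, the interferon beta gene, was at 0.200 and 0.698 normalized counts in the same authors' deposited table. Both means are near the floor of detection (log2 fold change 1.92, SE 1.74, adjusted p 0.561). The chemokine gene Cxcl10, named for its size, had means of 76.3 and 242 but an SE of 0.79 on a log2 fold change of 1.66, with an adjusted p of 0.178, by the authors' deposited table. With the trend of the longest transcripts subtracted, none of the 7 calls had an adjusted p under 0.05, when Irf9 was at 0.0638 and a single gene, G3bp1, passed at 0.0238 in values derived from the authors' deposited table. With the trend taken from coding transcripts, 2 pathway genes (2.7%) passed, G3bp1 and Irf9, beside 1.27% of all genes. So 1 of the 7 calls held there.

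**Figure D3:**
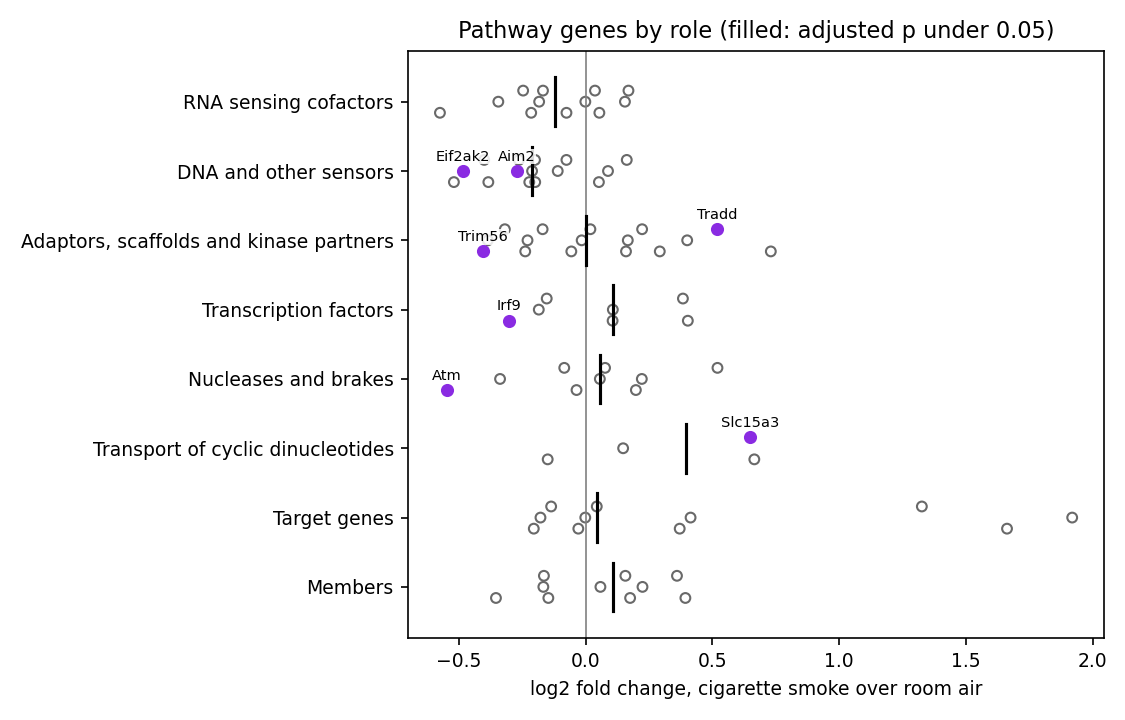
Log2 fold change, cigarette smoke over room air, of each tested gene by role (points) with the median of each list (vertical line); filled, labelled points have an adjusted p under 0.05. The 5 filled points below 0 are Eif2ak2, Aim2, Trim56, Irf9 and Atm, the 2 above are Tradd and Slc15a3, and none of the 10 members in the lowest row is filled.

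Splicing was measured per library as the percentage of junction or intron reads that include an alternative segment, as JuncBASE reports it. Of 10376 events in the whole table, 43 lay within 7 of the 10 genes, in 21 separate stretches: 20 events in Ikbke, 6 in Dhx58, 5 each in Tmem173 and Irf3, 4 in Tbk1, 2 in Trex1 and 1 in Ddx58. The table held none within Ifih1, Mavs or Mb21d1. Cigarette smoke replicate 1 had no value in 40.2% of all events and in 19 of the 43, so 24 events had values in all 6 libraries. Events that share an exon or intron share reads, so they are not separate evidence.

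No event within the genes passed limma with Benjamini-Hochberg adjustment over all events, where 0% of the 10376 passed. The lowest adjusted p among the 43 events was 0.212 and among all events 0.128. At an unadjusted p under 0.05 limma called 4 of the 43, against 10.8% of all events. Of the 24 complete events, 1 had all smoke values below all room air values, against 19.3% of all complete events, and 0 had all above, against 3.84%. Of the 13 retained introns 9 had a lower mean after smoke, against 89.9% of all retained introns. Without cigarette smoke replicate 3, 4 of the 43 events passed in limma, a setting in which 1131 of all 10376 events did.

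The Irf3 intron with the GT boundary shown above had the lowest difference of all 3305 retained introns in the table. This is intron 6 of the main coding transcript (chromosome 7, 45001023 to 45001672, 650 bases), which lies within the coding sequence. In room air its retention was 30.0% in replicate 1, 35.3% in replicate 2 and 36.4% in replicate 3, and after smoke it was 7.69% in replicate 2 and 11.1% in replicate 3, with no value in replicate 1. All 3 room air values were above both smoke values, and the difference of the means, 33.9% ± 3.40 (SD, n = 3) and 9.40% ± 2.42 (SD, n = 2), was -24.5 percentage points. The number of reads behind each of these levels is unknown and may be small. The event did not pass the test (limma, unadjusted p 0.00734, adjusted p 0.243), and the authors' deposited table gives it an unadjusted p of 0.0710 and a corrected p of 1.0. It was singled out after its values were seen, and the median difference of all retained introns was -3.79 percentage points. Without smoke replicate 3, which leaves 1 smoke value assumed to vary like the other group, its adjusted p in limma was 0.0470, and under the other alternatives it lay between 0.172 and 1.0.

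The other 2 retained introns of Irf3 had values that overlapped between the groups, while use of the donor of exon 6 was lower in both smoke libraries with a value. Retention of intron 3 (90 bases) was 5.88%, 4% and 5.26% in room air and 9.09%, 0% and 3.77% after smoke, so the groups overlapped (limma, adjusted p 0.701). Intron 7, downstream of the next exon, was retained at 5.05% ± 4.39 (SD, n = 3) in room air and 6.46% ± 0.297 (SD, n = 2) after smoke. The full-length donor of exon 6, the same splice site as that of intron 6, was used at 100% in all 3 room air libraries and at 80.0% and 97.1% in smoke replicates 2 and 3, where the remainder ended 206 bases earlier. Both smoke values lay below every room air value (difference -11.5 percentage points, limma, unadjusted p 0.0103, adjusted p 0.278), and the authors' deposited table gives an unadjusted p of 0.407 and a corrected p of 0.693. It is among the 4 events that passed in limma without smoke replicate 3, where 1 smoke value is left.

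In Dhx58 the 4 retained introns all lay within coding sequence and all had a lower mean after smoke, as 89.9% of all retained introns did, and none passed the test. Intron 12 (772 bases) was retained at 5.00%, 11.3% and 10.0% in room air and at 0%, 0% and 7.35% after smoke. Only smoke replicate 3 fell inside the room air range, and the adjusted p was 0.461 in limma with all libraries. Without that library, which went against the difference and whose removal let 1131 of all 10376 events pass, it was 0.0246, and under the other alternatives it lay between 0.3365 and 1.0. Intron 6 (134 bases) was at 3.33%, 11.8% and 4% in room air and at 0%, 0% and 4.76% after smoke, with an adjusted p of 0.477 in limma.

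Ikbke, the kinase with most events, had them in 6 separate stretches. The exon printed above was included at 88.0%, 88.6% and 90.3% in room air and at 100%, 91.7% and 87.3% after smoke, so most reads included it in each library. The groups overlapped, and the difference was not past the test (limma, adjusted p 0.619). In the last intron, use of an acceptor 1232 bases upstream of the annotated one was 3.92%, 3.61% and 5.17% in room air and 0%, 0% and 2.38% after smoke. This was the single complete event with all smoke values below all room air values, and its adjusted p was 0.371 in limma. It was 0.0206 without smoke replicate 3 and between 0.261 and 0.641 under the other alternatives. Intron 13 holds 10 of the events, none with a value in smoke replicate 1. Its retention was 10.3%, 22.2% and 12.9% in room air and 0% and 9.84% in smoke replicates 2 and 3 (limma, adjusted p 0.498). An acceptor within that intron was used at 3.70%, 3.45% and 6.90% in room air and at 0% in both smoke libraries with a value, which gave the lowest adjusted p of the 43 events in limma, 0.212.

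Tbk1, whose expression had the lowest p of the 10 genes, used the longer of the printed acceptor forms in nearly all reads. The 4 bases were included at 100%, 96.2% and 98.4% in room air and at 92.9%, 100% and 97.4% after smoke (limma, adjusted p 0.848). Another site, the donor of exon 4, can also move by 4 bases, and there the longer form was at 94.6%, 100% and 100% in room air and at 100% in each smoke library (limma, adjusted p 0.623). Intron 13, of 1962 bases, was retained at 6.82%, 10.7% and 6.56% in room air and 7.69%, 12.5% and 10.1% after smoke, overlapping (limma, adjusted p 0.743). It is 1 of 4 retained introns of the 13 with a higher mean after smoke.

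In Trex1 the 2 transcripts differ in the donor of their single intron, in the 5′ untranslated region. The shorter intron was used at 93.3%, 94.1% and 96.6% in room air and at 83.3%, 83.3% and 94.0% after smoke, where smoke replicate 3 lay inside the room air range (limma, adjusted p 0.504). Its retention was 6.67%, 8.57% and 0% in room air and 9.09%, 0% and 0% after smoke. The shorter intron is also annotated in Atrip. In Tmem173 the annotated acceptor of exon 4, against one 123 bases downstream, was used at 95%, 100% and 100% in room air and at 90.0%, 100% and 95.7% after smoke, again overlapping (limma, adjusted p 0.666). In Ddx58 a single unannotated acceptor was used at 2.38%, 7.58% and 3.12% in room air and 0%, 4.55% and 4.05% after smoke (limma, adjusted p 0.678).

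**Figure D4:**
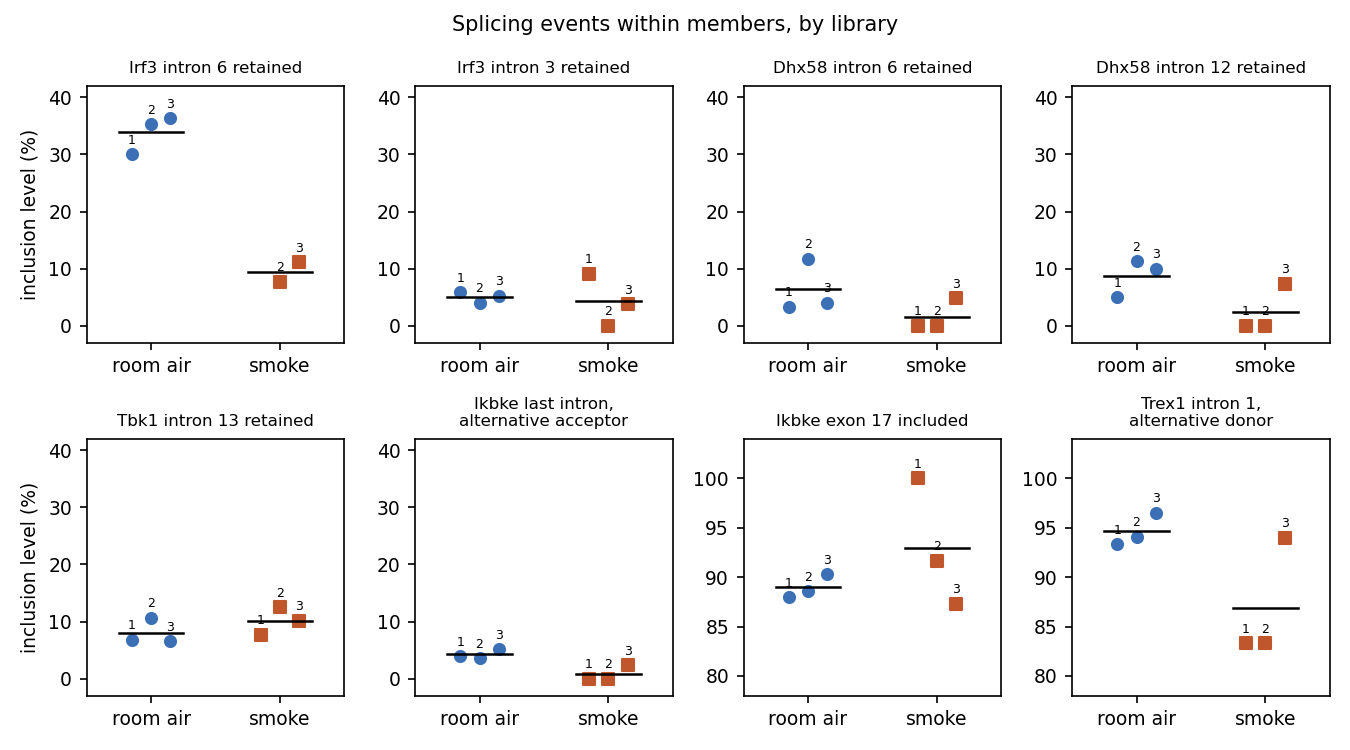
Inclusion level in percent of 8 events, 1 point per library with its replicate number, room air as circles and cigarette smoke as squares, and the group mean as a bar; the axes of the 2 panels of events near full inclusion do not start at 0. Irf3 intron 6 lies at 30.0% to 36.4% in room air and at 7.69% and 11.1% after smoke, with no value for smoke replicate 1, while in the other panels the groups overlap or, for the Ikbke acceptor, lie between 0% and 5.17%.

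The authors' deposited comparison of retained introns by rMATS held 3 introns on the strand of these genes among 3887. By the authors' deposited table none of the 3 passed a false discovery rate of 0.05, against 14.5% of all its introns. They were intron 5 of Irf3 (98 bases, false discovery rate 0.799) and a pair of overlapping introns of Trex1 (both at 1.0), by the authors' deposited table. Irf3 intron 6 was not among the rMATS introns used here. That table does not say which group is its first sample set, so no direction is given.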

How the data were processed

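RNA was sequenced from 6 macrophage libraries with a directional kit, per the labels' protocols. The submitters' processing notes name STAR, DESeq2, SAMtools 1.9, bedtools 2.27.1 and mm10; other versions and filters are not given in the sources used here.

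The authors deposited a gene table with means of size-factor-normalized counts as signal, log2 fold changes with standard errors, a Wald score, p-values and adjusted p-values. They also deposited JuncBASE inclusion in percent, with its difference of medians, and an rMATS table with a difference as a fraction; its 6 per-sample columns were not used.

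Intervals are the deposited value ± 1.96 SE. Trends in GC content and log2 length used splines of 4 degrees of freedom weighted by SE (statsmodels 0.14.6, patsy 1.0.2), with GENCODE M21 transcripts. Inclusion p became log2((p + 1)/(100 - p + 1)), tested with limma 3.58.1 in R 4.3.3, group as the term, Benjamini-Hochberg over all events. Both were tested on simulated data. There limma missed the smallest changes set, so an event that did not pass may still differ. Trend removal was tried only with changes larger than those deposited for the members. Differences use group means.

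Members and lists were chosen with earlier results of these data known. Named were all members, pathway genes past the threshold or the 2 highest means of a role without one, and up to 2 complete events a gene. Outside this rule, after their values were seen, came Tank, Ifnb1, Cxcl10, the third Tbk1 event, the incomplete Irf3 and Ikbke events and the rMATS introns. Of the other 18 libraries only the deposited mean over all 24 was used.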

Additional observations from a re-analysis of the deposited data

Results flagged for a closer look

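The authors' deposited table also gives a mean over 24 libraries, 18 of which are outside this series and whose conditions are not used here. For 5 of the 10 genes this mean was at least 2 times the higher of the 2 group means, against 12.8% of all tested genes. In the authors' deposited table the ratio was 7.99 for Ifih1, with a 24-library mean of 5260 normalized counts, 5.56 for Trex1 (1764), 3.56 for Ikbke (2064), 3.01 for Ddx58 (3574) and 2.72 for Dhx58 (1324). Tbk1, at 1060, and Mb21d1, at 267, were also above both group means in that table, which makes 7 of 10, against 48.3% of all tested genes. Mavs (205), Irf3 (168) and Tmem173 (295) were below both. Exons of Trex1 are shared with Atrip, so its ratio is uncertain.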

How the results depend on the processing

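Leaving out single libraries was not possible for expression, where group means were used. No member passed an adjusted p of 0.05 under any of the 5 settings for expression that gave one. With the GC content and length trend removed, signs reversed for Ifih1 (0.080), Dhx58 (-0.0044), Mavs (-0.072), Irf3 (-0.047) and Trex1 (-0.020). With the trend taken from the longest coding transcript, a setting added after seeing the data, they reversed for Ifih1 (0.10), Mavs (-0.047) and Irf3 (-0.019). The number of all genes past the threshold moved from 929 to 153 under either trend, and that of pathway genes from 7 to 1, or to 2, Irf9 among them, with coding transcripts. Adjusting over all 19373 genes with a p-value left 4 pathway genes (5.33%), beside 3.55% of those genes.

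For splicing, 0 of all events passed, but 23 with values in all 6 libraries and 5 with a mean level of 5% to 95%. Leaving out a library gave 0 to 1131 for all events and 0 to 4 for member events, the highest both without cigarette smoke replicate 3. The 4 were in Irf3 (intron 6 and the exon 6 donor, each with 1 smoke value left), Ikbke and Dhx58. The log2 odds ranged from -1.17 to 0.10 for the Ddx58 acceptor, reversed without smoke replicate 1, and from -1.50 to 0.23 for Irf3 intron 3, reversed without smoke replicate 2. The cause was not tested. With a replicate block, 0 events passed in limma (lowest adjusted p 0.609). Same-numbered libraries had correlations of 0.0177, -0.0404 and -0.0888, so no pairing by number was seen in these values. So few libraries cannot exclude a shared day or litter, which the labels do not give. Depth is unknown, and any level may rest on few reads, those at 0% or 100% included.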

Other observations

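On the strand opposite to Mb21d1, the authors' deposited rMATS table holds an intron of 550 bases (chromosome 9, 78430055 to 78430604, GRCm38) that reaches into the 3′ end of the gene. By the authors' deposited table its level differed by -22.8 percentage points, set 1 minus set 2 (false discovery rate 0.0575), and the pseudogene Gm8093 lies on that strand.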
